A study of Danio rerio with 11 samples.

Results

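Line 36433 is a zebrafish line with a mutation in lsd1, and its mutant embryos were set against their wildtype siblings across every gene expressed in the tail. The libraries were chosen by their labels alone, 3 mutant and 3 wildtype, which is 6 of the 11 libraries sequenced. Each library was made from a pool of 5 tails, the tissue behind the yolk sac, at 24 hours post fertilisation (hpf), and no treatment or transgene is given for either group. The other 5 libraries, 3 mutant and 2 wildtype, came from a second line, 23095. The labels describe neither lesion, and they do not say whether the pools of a group came from separate clutches, so the p-values measure the spread between these pools, which may be partly technical.

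Lsd1, encoded by kdm1a, is an enzyme that removes methyl groups from lysine 4 of histone H3 and so helps to silence enhancers and promoters. It works in complexes with CoREST proteins and histone deacetylases. DNA-binding repressors such as Gfi1 and the Snail proteins recruit it through a short N-terminal SNAG domain that occupies its catalytic pocket. In vertebrate embryos Lsd1 is best known for its part in blood formation, where Gfi1 proteins use it to silence the endothelial programme as blood cells emerge.

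Total counts ran from 12199605 to 16649352 in the 6 libraries, and the 10 genes with most counts took 13.46% to 15.05% of them. Levels are given as CPM, read counts relative to a library's scaled total, and they compare libraries for 1 gene but not genes with each other. Genes that mark the tail were present: 23 posterior hox genes summed to 548 to 727 CPM and 50 skeletal muscle genes to 34882 to 53278 CPM. Of 22 identifiers in a list of head and heart genes 7 did not pass the filter on low counts, and the other 15 summed to 37.8 to 49.4 CPM. In bulk tissue, fewer cells of a type and less RNA per cell cannot be told apart.

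Wildtype replicate 1 stood apart from the other wildtypes. On the first principal component of the 6 libraries (34.4% of the variance) it lay at -28.4, whereas wildtype replicates 2 and 3 lay at 42.3 and 44.5 and the mutants at -28.5, -6.36 and -23.6. Its median deviation from its group's mean was 0.23 on the log2 scale, against 0.116 to 0.168 in the other 5 libraries. Results that moved by more than 1.5 times without it are given below with and without it.

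Transcripts of kdm1a fell, and every mutant library lay below every wildtype library. The line was described as the one in which kdm1a transcript falls when it was chosen, so this is a description and no independent check of the labels. The gene (KDM1A in the symbol table, ENSDARG00000060679) stood at 162, 155 and 135 CPM in wildtype replicates 1, 2 and 3, and at 36.9, 34.2 and 34.8 CPM in mutant replicates 1, 2 and 3. The groups were far apart, and the mutants lay close together. The wildtype level was 4.27 times that of the mutants, a log2 fold change of -2.10 (SE 0.15), with the smallest adjusted p of all genes (6.93e-05, Benjamini-Hochberg over 20886 genes, by the quasi-likelihood F-test of edgeR). The log2 fold change ranged from -2.17 to -2.04 when each of the 6 libraries was left out in turn. Symbols in capitals here and below are human-style names that the table gives to zebrafish identifiers.

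Few genes other than kdm1a passed the test. Of 20886 tested genes, 35 (0.168%) were called at an adjusted p under 0.05, of which 25 (0.12%) rose and 10 (0.0479%) fell. The median log2 fold change of all genes was -0.02, and 5% of genes lay below -0.56 and 5% above 0.68. At an unadjusted p under 0.05 there were 1410 genes, 858 of them higher in the mutants and 552 lower. In 13.5% of all genes every mutant library lay beyond every wildtype library, above it in 7.23% and below it in 6.28%. The smallest log2 fold change among the 35 was 1.01 in size, that of lingo4b, and 702 genes that also differed by more than 1 were not called.

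**Figure D1:**
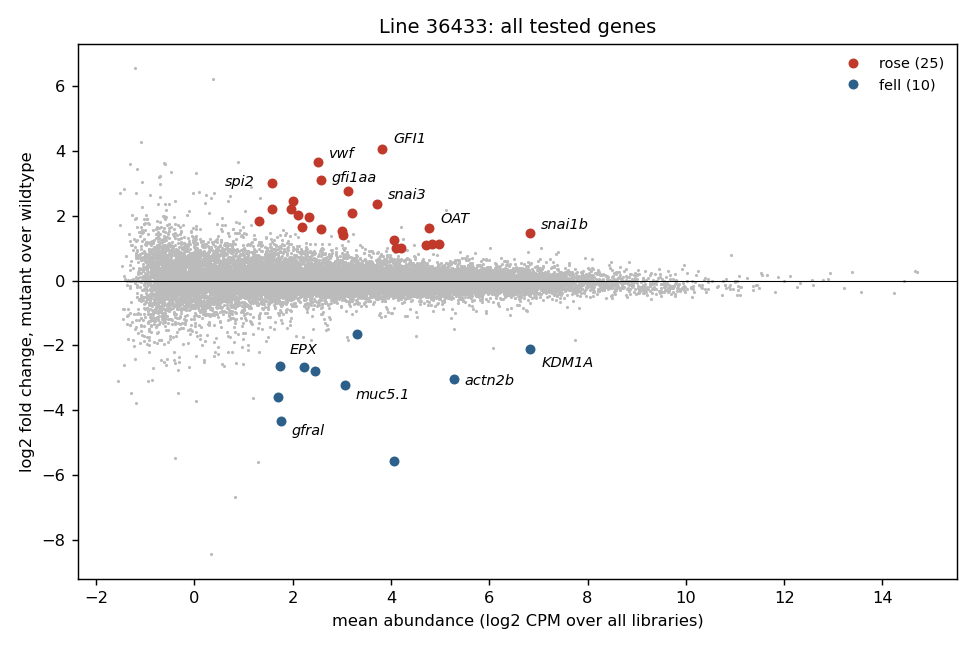
Each point is 1 of the tested genes, with its mean abundance (log2 CPM over all libraries) on the x axis and its log2 fold change, mutant over wildtype in line 36433, on the y axis; red points rose and blue points fell at an adjusted p under 0.05. The 35 called genes stand outside the dense band, though some genes of low abundance that were not called lie farther from 0, with GFI1 the highest of those that rose at 4.08 and KDM1A and snai1b at the highest abundance.

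The count depended on single libraries and on the test. It was 64 without wildtype replicate 1 and 12 to 19 without each of the other 5 libraries, and DESeq2's Wald test called 124 (85 rose, 39 fell). The calls of 10 genes held whichever of the 6 libraries was left out, namely KDM1A, snai3, snai1b, GFI1, actn2b, OAT, vwf, spi2, si:dkey-65b12.6 and si:ch73-208g10.1. In the authors' deposited table for this comparison 122 genes had an adjusted p under 0.05, and these included all 35 called here, each in the same direction. The other 87 included genes described below as not called. Among these were snai2, higher in the mutants, and RRM2, AGR2, SOX1, plvapb, CORO1A and tspo, lower in the mutants.

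The genes of SNAG-domain repressors, the proteins that dock onto Lsd1, held more called members than any other of the 29 lists described. Of 13 tested members 5 rose and none fell, where 0.12% of all genes rose, and the median log2 fold change was 0.88 against -0.02 for all genes. The libraries did not overlap in 8 of the 13, all higher in the mutants, where 7.23% of all genes were. Their summed level was 427 to 511 CPM in the mutants against 213 to 235 CPM in the wildtypes. These members, like those of the other lists, were chosen with earlier results of the same libraries known. The list counts here and below are therefore descriptions.

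The Gfi1 genes encode zinc-finger repressors that control the formation of blood cells. GFI1 (ENSDARG00000044457) was at 0.513, 1.34 and 1.47 CPM in the wildtypes and at 12.8, 19.95 and 23.8 CPM in the mutants, the largest rise among called genes (log2 fold change 4.08, SE 0.38, adjusted p = 0.000299, edgeR's quasi-likelihood test). Every mutant library exceeded every wildtype library more than 8-fold. Its paralog gfi1aa went from 0.769, 0.538 and 0.96 CPM to 5.86, 4.38 and 9.56 CPM (log2 fold change 3.10, SE 0.45, adjusted p = 0.0127), a call lost without mutant replicate 3 or wildtype replicate 2 or 3. GFI1B, the paralog that acts in red cells and platelets, was higher in all mutants (13.0, 11.1 and 19.2 CPM against 7.69, 5.65 and 2.62) but was not called (log2 fold change 1.44, adjusted p = 0.426).

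The snail genes encode repressors best known for driving epithelial cells and neural crest cells to become migratory. Expression of snai3 was 2.69, 2.69 and 3.01 CPM in the wildtypes and 12.4, 13.1 and 17.5 CPM in the mutants, a 5.11-fold rise (log2 fold change 2.35, SE 0.20). For snai1b the wildtypes had 55.9, 47.6 and 48.6 CPM and the mutants 137, 135 and 153 CPM (log2 fold change 1.48, SE 0.14). Both groups were tight and well separated for these 2 genes, and both had an adjusted p of 0.000299 (edgeR's quasi-likelihood test). The wildtype levels of snai1a were 17.1, 17.6 and 15 CPM and the mutant levels 33.4, 35.3 and 40.9 CPM (log2 fold change 1.14, SE 0.19, adjusted p = 0.0344). Its call was lost whichever library was left out, with adjusted p-values of 0.0601 to 0.222. The fourth gene, snai2, did not overlap between the groups either (144, 142 and 178 CPM in the mutants, 69.4, 94.8 and 88.1 CPM in the wildtypes) and lay just above the threshold (log2 fold change 0.88, SE 0.17, adjusted p = 0.0792). The other members of the list, which encode the Ovol, Scratch and Insm1 proteins, had log2 fold changes of -0.22 to 0.67, and none was called.

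**Figure D2:**
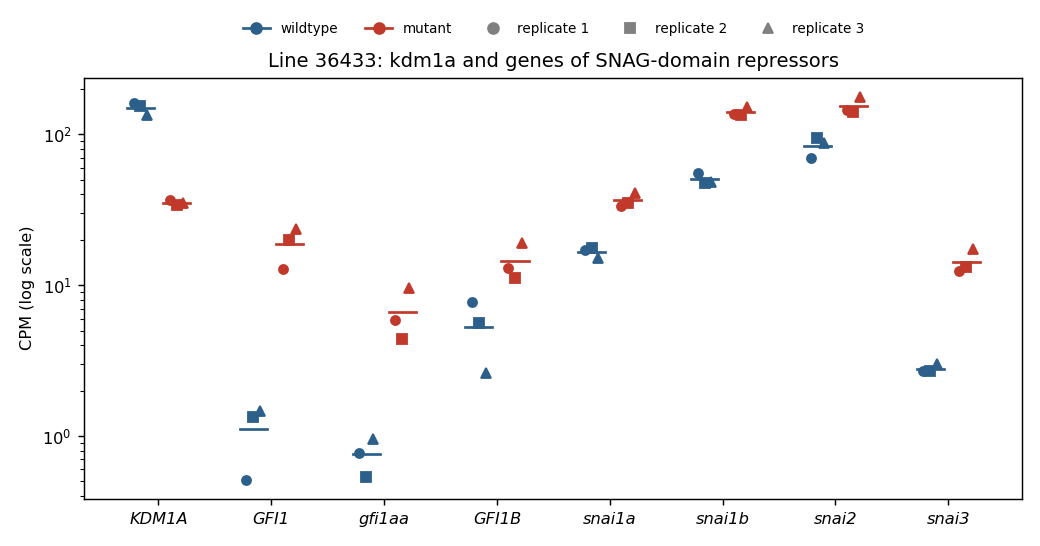
CPM in each of the 6 libraries of line 36433 (log axis) for kdm1a (KDM1A), the 3 Gfi1 genes and the 4 snail genes; marker shape gives the replicate, colour the genotype, and the horizontal line the mean of 3 libraries. The mutants lie below the wildtypes only for KDM1A, and the groups do not overlap in any of the 8 genes, of which GFI1B and snai2 did not pass the test.

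Transcripts of the proteins that work beside Lsd1 showed no fall of the size of that of kdm1a. Of 26 tested genes of CoREST, deacetylase and related complexes, KDM1A itself fell and no other was called, and the other 25 had log2 fold changes of -0.41 to 0.53. The lowest of these was HMG20B, a DNA-bending subunit of the CoREST complex, at 34.5, 36.7 and 37.5 CPM in the mutants against 38.8, 51.6 and 53.7 CPM in the wildtypes (adjusted p = 0.659). The highest was RCOR3, a CoREST scaffold, at 0.53 (adjusted p = 0.704). In 3 of the 26, KDM1A and HMG20B among them, every mutant was below every wildtype (11.5%, against 6.28% of all genes). In 2 every mutant was above every wildtype, which at 7.69% is near the 7.23% of all genes.

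Several called genes are known from blood cells and blood vessels. Transcripts of vwf, the clotting glycoprotein stored in vessel walls, were at 0.513, 1.08 and 0.384 CPM in the wildtypes and 6.32, 9.63 and 9.12 CPM in the mutants (log2 fold change 3.66, SE 0.45, adjusted p = 0.0045, edgeR's quasi-likelihood test). Those of spi2, an ETS-family transcription factor gene, were at 0.449, 0.672 and 0.64 CPM and 4.61, 6.00 and 3.91 CPM (log2 fold change 3.03, SE 0.36). In both genes the lowest mutant was several times the highest wildtype. SASH3, an adaptor of lymphocyte signalling in mammals, was at 0.898, 1.08 and 1.47 CPM in the wildtypes and at 5.86, 5.75 and 7.46 CPM in the mutants, a 2.46 rise on the log2 scale. It was not called without wildtype replicate 2 or mutant replicate 3 (adjusted p up to 0.0732).

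As a group, regulators of blood stem and progenitor cells held 2 called genes of 16, where 0.168% of all genes were called. These were GFI1 and gfi1aa, which are also SNAG genes, and none fell. The median log2 fold change was 0.45, and 0.58 without wildtype replicate 1. In 8 of the 16 every mutant library was above every wildtype library, where 7.23% of all genes were. RUNX1, the transcription factor needed for blood stem cells to form, was at 1.80, 1.31 and 2.1 CPM in the mutants against 0.513, 0.471 and 0.704 CPM in the wildtypes, with a log2 fold change of 1.60 that did not pass the test (adjusted p = 0.193). IKZF1, a lymphoid zinc-finger factor, had a log2 fold change of 1.39 (adjusted p = 0.389). The summed level of the list overlapped between the groups (491 to 555 CPM in the mutants, 418 to 545 CPM in the wildtypes).

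Of 16 genes of lymphoid-type signalling 3 were called, all of which rose, where 0.12% of all genes rose. This list too was chosen with earlier results known, so the count is a description. The median log2 fold change was 0.61, but 0.39 without mutant replicate 1, 0.40 without mutant replicate 3 and 0.25 with no filter on low counts. Besides SASH3 these were gmip and RASGRP2, an activator of Rap and Ras GTPases in platelets and leukocytes. The level of gmip was 2.56, 1.75 and 1.15 CPM in the wildtypes and 5.47, 6.76 and 9.05 CPM in the mutants (log2 fold change 1.96, adjusted p = 0.0376). RASGRP2, a symbol shared by 2 identifiers, had 1.28, 0.672 and 2.11 CPM against 4.61, 4.88 and 9.41 CPM (log2 fold change 2.2, adjusted p = 0.0496), and its second copy was not called. Each of these 2 calls was lost in 5 of the 6 fits that left out 1 library, and each held in the remaining 1. Summed, the list was at 57.5 to 70.09 CPM in the mutants against 37.3 to 43.3 CPM in the wildtypes, with no overlap.

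Of 36 endothelial genes vwf alone was called, where 0.168% of all genes were, and the median log2 fold change was 0.25. The ETS factor gene FLI1 was at 32.5, 40.5 and 46.6 CPM in the mutants against 26.5, 25.8 and 27.8 CPM in the wildtypes (log2 fold change 0.58, adjusted p = 0.286). The vessel-wall diaphragm gene plvapb was lower in all mutants (14.5, 16.9 and 15.4 CPM against 25.1, 28.4 and 38.7; log2 fold change -0.97, adjusted p = 0.127). In 9 of the 36 every mutant was above every wildtype, against 7.23% of all genes, and in 2 every mutant was below, which at 5.56% is near the 6.28% of all genes.

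Lists of differentiated leukocytes had medians below that of all genes. EPX (ENSDARG00000019521, under a human-style symbol), a granule peroxidase, was the only called gene among 14 of neutrophils and granulocytes, where 0.168% of all genes were. It fell from 4.36, 10.7 and 15.4 CPM to 1.09, 2.13 and 1.52 CPM (log2 fold change -2.66, SE 0.42, adjusted p = 0.023). Wildtype replicate 1 had the lowest wildtype level, and the call held only in the fit without it. Another granulocyte gene, lyz for lysozyme, was at 0.156, 1.13 and 0.29 CPM in the mutants against 0.321, 2.42 and 7.04 CPM in the wildtypes, which overlapped (adjusted p = 0.515). CSF3R, a receptor for a granulocyte growth factor, was higher in every mutant than in any wildtype (5.31, 7.57 and 6.59 CPM against 2.56, 2.02 and 4.35; log2 fold change 1.12, adjusted p = 0.34). The 14 log2 fold changes ran from -2.66 to 1.24, with a median of -0.06 that was -0.21 without wildtype replicate 1 and changed sign under some settings.

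No gene of the macrophage list (15 tested, median -0.26) or the pan-leukocyte list (16 tested, median -0.40) was called. The actin-binding leukocyte gene CORO1A was at 1.80, 2.31 and 1.45 CPM in the mutants against 3.98, 5.31 and 9.15 CPM in the wildtypes (log2 fold change -1.72, adjusted p = 0.131). The summed pan-leukocyte level was 184 to 212 CPM in the mutants, 306 and 328 CPM in wildtype replicates 2 and 3, and 153 CPM in wildtype replicate 1, below all mutants. Without that library the medians of the macrophage and pan-leukocyte lists were -0.47 and -0.69, still with no call. Without wildtype replicate 3 they were -0.08 and -0.17, and without wildtype replicate 2 that of the macrophage list was -0.15. Of 29 erythroid genes none was called, and 25 were lower (median -0.29). That median was -0.13 without wildtype replicate 1, where 1 member, tspo, fell, -0.17 without mutant replicate 2, -0.50 without mutant replicate 3 and -0.58 without wildtype replicate 3. The list does not hold every globin gene. HBE1, a globin symbol outside it, averaged 60.4 CPM in the mutants and 13.4 CPM in the wildtypes (log2 fold change 2.17, adjusted p = 0.118, edgeR's quasi-likelihood test). The globin gene hbaa2, also outside it, averaged 0.803 CPM in the mutants and 0 in the wildtypes. Neither was called here, but both had an adjusted p under 0.05 in the authors' table. The same holds for CORO1A, tspo and the macrophage-type genes MFAP4, mfap4.8 and mfap4.11, all of them lower in the mutants.

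**Figure D3:**
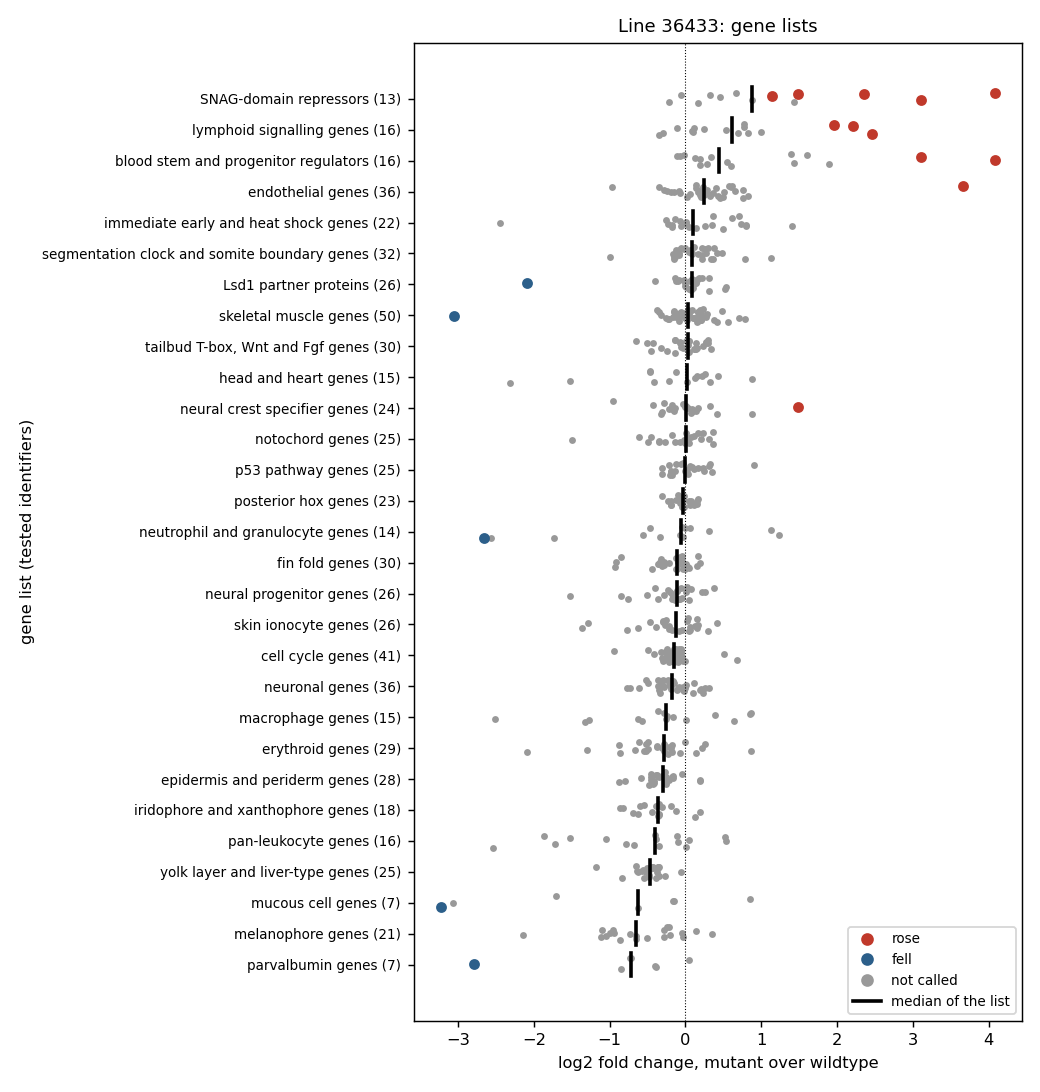
Log2 fold change, mutant over wildtype in line 36433 (x axis), of every tested member of 29 gene lists (y axis, with the number tested), ordered by the median, which is the black bar; red members rose, blue members fell and grey members were not called. SNAG-domain repressors have the highest median at 0.88 and the parvalbumin genes the lowest at -0.72 (-0.11 without wildtype replicate 3), and most lists have no called member.

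Among muscle genes the change was in single genes. The alpha-actinin gene actn2b, whose product crosslinks actin at the Z-disc, was at 47.0, 28.5 and 23.2 CPM in the wildtypes and 3.90, 3.06 and 5.00 CPM in the mutants, an 8.27-fold difference (log2 fold change -3.05, SE 0.28, adjusted p = 0.000299, edgeR's quasi-likelihood test). The call held whichever library was left out. The other 49 skeletal muscle genes were not called and the median of the 50 was 0.04; the myosin heavy chain gene myhz2 was among the highest (log2 fold change 0.79, adjusted p = 0.429). PGM5, a phosphoglucomutase relative found at cell-matrix junctions of muscle, rose from 16.4, 10.15 and 14.1 CPM to 28.0, 27.5 and 31.7 CPM (log2 fold change 1.1, SE 0.18). Its call was lost in 5 of the 6 fits that left out 1 library.

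Of 7 parvalbumin genes, which encode calcium buffers of muscle and other excitable cells, pvalb8 fell and none rose, where 0.0479% of all genes fell. Its levels were 3.65, 17.9 and 17.0 CPM in the wildtypes and 2.58, 1.56 and 1.45 CPM in the mutants (log2 fold change -2.79, SE 0.48, adjusted p = 0.0376). Wildtype replicate 1 lay near the mutants here, and the call held only without it. The median of the 7 was -0.72, and -0.11 without wildtype replicate 3. Of the members not called, pvalb1 was highest in wildtype replicate 3 (505 CPM) and the groups overlapped (93.3, 270 and 107 CPM in the mutants, 153 and 187 CPM in the remaining wildtypes).

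Lists of mucous cells, skin and yolk had negative medians, and wildtype replicate 1 was below both other wildtypes in most of their genes. The gel-forming mucin gene muc5.1 fell from 8.14, 18.5 and 24.4 CPM to 2.19, 1.56 and 1.74 CPM (log2 fold change -3.22, SE 0.54, adjusted p = 0.0307), a call that held only without wildtype replicate 1. Of 7 mucous cell genes it was the only called member, where 0.168% of all genes were called, and the median was -0.63. That median was -0.41 without mutant replicate 1, -0.40 with no filter on low counts and -0.39 with a filter of 1 CPM in 3 libraries. In 3 of the 7 every mutant was below every wildtype, where 6.28% of all genes were. The summed level was 44.5 to 54.4 CPM in the mutants, 60.0 CPM in wildtype replicate 1, and 109 and 124 CPM in wildtype replicates 2 and 3. AGR2, a disulphide isomerase needed for mucin folding, was at 12, 15.5 and 10.6 CPM in the mutants against 18.7, 46.8 and 59.0 CPM in the wildtypes (log2 fold change -1.70, SE 0.33, adjusted p = 0.0792). Without wildtype replicate 1 AGR2 was called, at a log2 fold change of -2.05 (adjusted p = 0.00116).

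None of 28 epidermis and periderm genes and none of 25 yolk layer and liver-type genes was called, although 26 and 25 of them were lower. Their medians were -0.29 and -0.47, and -0.51 and -0.71 without wildtype replicate 1, but -0.14 and -0.27 without wildtype replicate 2. Without mutant replicate 3 the yolk-layer median was -0.30. Leaving out wildtype replicate 1 made 1 epidermis gene, krt91, pass the test (log2 fold change -1.14, adjusted p = 0.0484, edgeR's quasi-likelihood test). Wildtype replicate 1 was below both other wildtypes in 27 of the 28 and in 25 of the 25, where 38.1% of all genes were. With all 6 libraries the groups overlapped in every gene of both lists. Against wildtype replicates 2 and 3 alone, all mutants were lower in 21 of the 28 and 23 of the 25, where 20.9% of all genes were. Wildtype replicate 1 was set aside after its values had been seen, so these counts are a description. The summed yolk-layer level shows the order: 15560 to 25557 CPM in the mutants, 18857 CPM in wildtype replicate 1, and 34094 and 31795 CPM in wildtype replicates 2 and 3. The part of yolk or skin tissue in the falls of muc5.1, EPX and pvalb8 was not tested.

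Pigment genes also had low medians without a call. The melanophore list (21 tested) had a median of -0.65, and MLPH, which tethers pigment granules to their motor, was at 0.312, 0.688 and 0.145 CPM in the mutants against 1.2, 2.02 and 2.05 CPM in the wildtypes (adjusted p = 0.472). Its summed level did not overlap by a narrow margin (124 to 191 CPM against 192 to 273 CPM). The iridophore and xanthophore list (18 tested) had a median of -0.36. Without wildtype replicate 1 these medians moved in opposite directions, to -0.42 and -0.56. The neural crest specifiers, from which pigment cells derive, had a median of 0.00 (0.07 without that library) over 24 genes with snai1b the only call.

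The embryonic axis itself showed few differences. No gene was called among 32 of the segmentation clock and somite boundaries (median 0.09), 30 tailbud T-box, Wnt and Fgf genes (0.03), 23 posterior hox genes (-0.03) or 25 notochord genes (0.00). The clock gene her7 was at 6.25, 3.25 and 6.23 CPM in the mutants against 2.5, 2.82 and 1.86 CPM in the wildtypes (log2 fold change 1.12, adjusted p = 0.576). Neuronal genes (36 tested, median -0.17), neural progenitor genes (26, -0.12), skin ionocyte genes (26, -0.13) and fin fold genes (30, -0.11) had no call either. Without wildtype replicate 1 the medians of these 8 lists were, in the same order, 0.15, 0.04, -0.16, 0.05, -0.03, 0.05, -0.15 and -0.21. Among the neural genes the transcription factor gene SOX1 had the smallest p (4.22, 5.94 and 4.49 CPM in the mutants, 8.21, 9.48 and 8.70 CPM in the wildtypes, adjusted p = 0.175).

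No cell cycle gene was called. Of 41 tested 39 were lower and 2 higher (-0.94 to 0.68 on the log2 scale), with a median log2 fold change of -0.15 that ranged from -0.19 to -0.13 as each of the 6 libraries was left out. In 14 of the 41 every mutant was below every wildtype, where 6.28% of all genes were. RRM2, the small subunit of the enzyme that makes deoxynucleotides, differed most (log2 fold change -0.94, SE 0.18, adjusted p = 0.0795, edgeR's quasi-likelihood test). It was at 74.1, 62.9 and 78.9 CPM in the mutants against 130, 135 and 150 CPM in the wildtypes. The symbol is shared by 2 identifiers, and these values are for 1 of them. Neither the p53 pathway list (25 tested, median -0.01) nor the immediate early and heat shock list (22, median 0.09) had a called gene, and without wildtype replicate 1 their medians were -0.05 and 0.20. In the first, the proapoptotic gene bbc3 was at 3.83, 3.44 and 3.84 CPM in the mutants against 1.47, 2.62 and 1.86 CPM in the wildtypes (adjusted p = 0.693). The summed level of the second was lower in every mutant (4958 to 5156 CPM) than in any wildtype (5464 to 5933 CPM), although its median was above 0.

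Called enzymes and transporters, grouped after the calls were seen, included OAT, the mitochondrial enzyme ornithine aminotransferase, which rose from 15.97, 11.6 and 12.3 CPM to 44.7, 38.7 and 39.6 CPM (log2 fold change 1.62, SE 0.16, adjusted p = 0.000442, edgeR's quasi-likelihood test). ELOVL2, which elongates polyunsaturated fatty acids, rose from 4.87, 4.24 and 5.18 CPM to 13.0, 14.4 and 13.5 CPM (log2 fold change 1.52, SE 0.23). The groups were tight in both genes, and the call of OAT held whichever library was left out, whereas that of ELOVL2 held in 1 of the 6 such fits. PPEF1, a phosphatase regulated by calcium, rose by 1.84 on the log2 scale, and its call was lost in 4 of the 6 such fits. SLC16A12, a monocarboxylate transporter whose symbol 2 identifiers share, rose by 2.01 and lost its call in all 6 such fits.

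Some called genes encode proteins of intracellular signalling, a grouping likewise made after the calls were seen. GNB2, a G protein beta subunit, was at 22.6, 16.7 and 20.7 CPM in the wildtypes and 42.6, 43.8 and 44.0 CPM in the mutants (log2 fold change 1.12, SE 0.17, adjusted p = 0.02). The Ras-like gene rasl10a rose by 2.21, SGSM3, which acts on Rab GTPases, by 1.01, and akap12a, a scaffold for protein kinase A, by 1.59 on the log2 scale. CCSER2, a coiled-coil protein gene, rose by 1.27. These 5 calls were lost in 3 to 5 of the fits that left out 1 library.

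Secreted and cell-surface proteins went in both directions. The matrix genes SMOC1, which modulates BMP signalling, and olfml2ba, an olfactomedin-like gene, rose by 1.40 and 1.66 on the log2 scale, and lingo4b, a leucine-rich repeat transmembrane gene, rose by 1.01. The microseminoprotein gene msmp2 fell from 12.8, 12.5 and 15 CPM to 3.12, 6.07 and 3.69 CPM (log2 fold change -1.64, SE 0.27). For gfral, the receptor of the stress hormone GDF15 in mammals, the wildtypes had 3.53, 13.4 and 7.87 CPM and the mutants 0.468, 0.313 and 0.434 CPM (log2 fold change -4.33, SE 0.55, adjusted p = 0.00452). Every mutant was under every wildtype in both genes, and the wildtypes of gfral were spread over a wide range. The calls of olfml2ba, lingo4b and msmp2 were each lost in 4 of the 6 fits that left out 1 library. That of SMOC1 was lost in 3 and that of gfral in 2.

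The remaining called genes have only clone names or no symbol, and no role is given for them. The largest fall was that of si:dkey-65b12.6, from 13.9, 43.4 and 59.1 CPM to 0.234, 1.06 and 1.09 CPM (log2 fold change -5.56, SE 0.69, adjusted p = 0.0045). In si:ch211-236p5.3 the level was 5.26, 3.70 and 3.39 CPM in the wildtypes and 0.547, 0.25 and 0.217 CPM in the mutants (log2 fold change -3.60, SE 0.46). Transcripts of si:dkey-28g23.6 fell by 2.65 on the log2 scale, and those of si:ch73-208g10.1 rose by 2.76. The calls of si:ch211-236p5.3 and si:dkey-28g23.6 were lost in 2 and 3 of the 6 fits that left out 1 library. A further identifier without a symbol rose by 2.08.

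**Figure D4:**
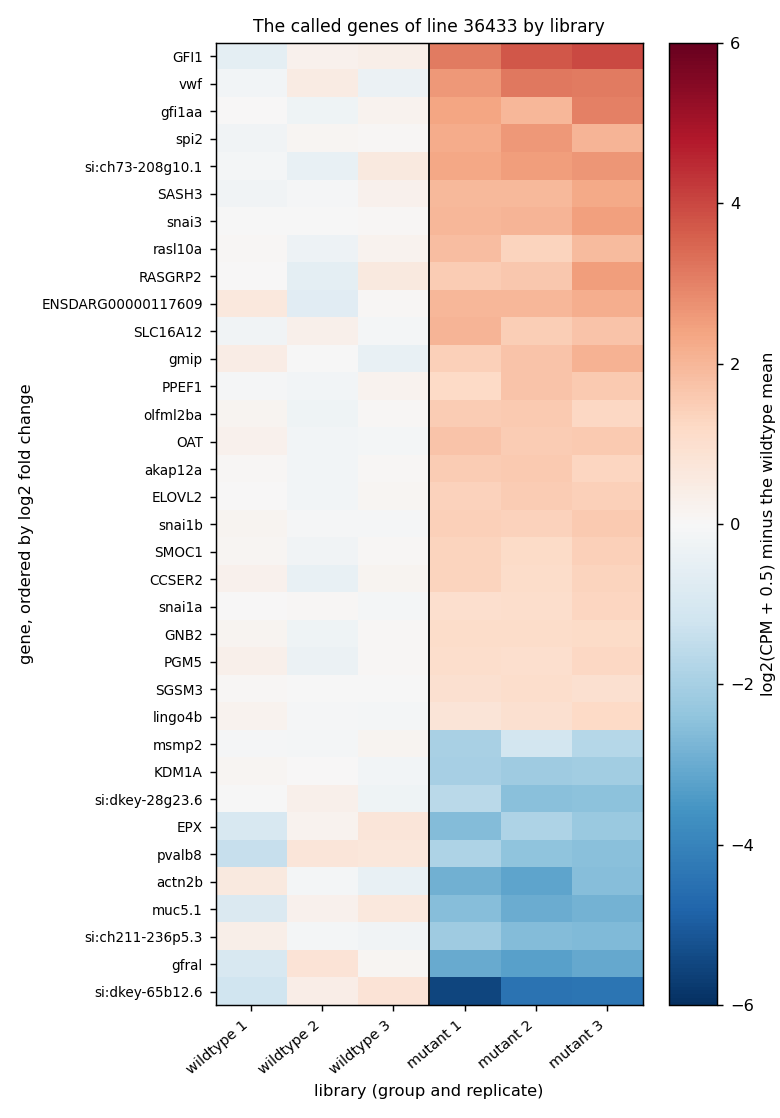
Heat map of the 35 called genes (rows, ordered by log2 fold change) in the 6 libraries of line 36433 (columns); colour gives log2(CPM + 0.5) minus the mean of the 3 wildtypes. The rows of pvalb8, EPX, muc5.1, gfral and si:dkey-65b12.6 show wildtype replicate 1 below the other wildtypes, as with 3.65 CPM of pvalb8 against 17.9 and 17.0.

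Just above the threshold, 10 genes with a symbol had adjusted p-values of 0.0593 to 0.0744. The 8 with higher levels in the mutants included ntn5, a netrin gene (23.4, 25.5 and 29.0 CPM against 13.7, 9.55 and 8.57), blk, a kinase gene of B cells in mammals (0.859, 0.813 and 1.23 CPM against 0.0641, 0.134 and 0.064), the coenzyme Q gene COQ8A and the lysosomal nuclease gene dnase2. DMRTA2, a transcription factor gene, and PLAC8L1 were lower, the first at 0.468, 0.375 and 0.941 CPM against 1.80, 5.51 and 3.2. The libraries of the groups did not overlap in any of these 3 genes with values given.

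The called genes were then placed along the chromosomes, using RefSeq gene order, which placed 14193 of the tested genes and 27 of the called ones on 17 of 25 chromosomes. The chromosome that carries kdm1a held 5 of the 27, namely KDM1A, actn2b, si:ch211-236p5.3, akap12a and SMOC1, and 3.85% of the placed genes. On it 77 of 546 genes (14.1%) had an unadjusted p under 0.05, against 3.5% to 9.71% (median 6.34%) on each of the other 24 chromosomes. Without kdm1a, 35 of the other 76 were higher in the mutants. In order along the chromosome, the share was 15.8% to 20.4% in 3 stretches before kdm1a and 9.33% to 10.5% in 3 stretches after it. Among the 40 genes nearest to kdm1a 35 were tested, and 6 of the 35 had an unadjusted p under 0.05. Beside this stand 14.1% of the genes on the whole chromosome and 6.36% on all others. In 10 of the 35 the groups did not overlap, where 13.5% of all genes did not. None of the 35 was called, where 0.168% of all genes were. The pattern along this chromosome was looked for after the values had been seen. Left-out libraries gave 10.6% to 20.4% on that chromosome, and without wildtype replicate 1 the share was 20.4% against 15.8% of the genes on all others, where it had been 14.1% against 6.36%.

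**Figure D5:**
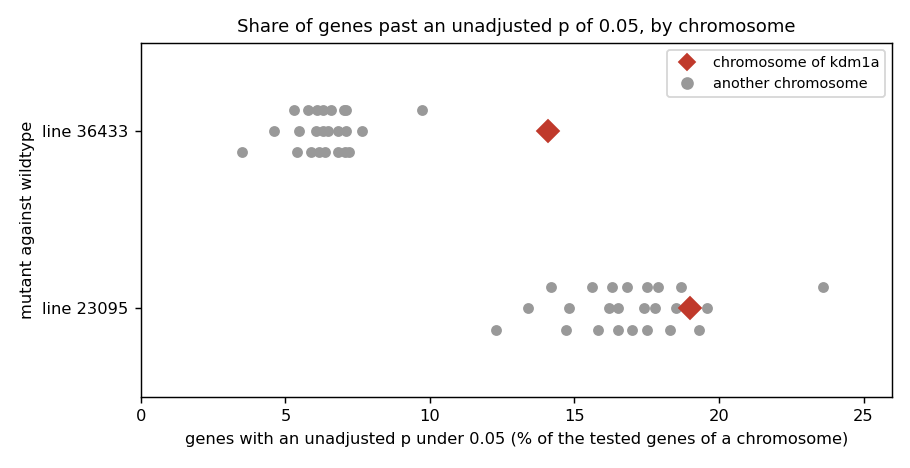
Share of a chromosome's tested genes with an unadjusted p under 0.05 (x axis, percent), mutant against wildtype, for line 36433 and line 23095 (y axis); the red diamond is the chromosome that carries kdm1a and grey points are the other 24, spread vertically only for legibility. In line 36433 the diamond at 14.1% lies beyond all other chromosomes, whereas in line 23095 it lies at 19.0% among values of 12.3% to 23.6%.

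Line 23095 served to place these changes. Of the 22 called genes of line 36433 on other chromosomes, all 22 had the same sign in line 23095 and 19 were also called there, where 1.63% of all genes were called. Of the 8 called genes without a place, 8 had the same sign and 4 were called there. Of the 5 on the chromosome of kdm1a, 2 had the same sign and 1, SMOC1, was called there. KDM1A is among these 5. Line 36433 was chosen as the line in which kdm1a transcript falls, so the KDM1A part of this count is a description. KDM1A, actn2b, si:ch211-236p5.3 and akap12a had log2 fold changes of 0.11, 0.07, 0.36 and 0.02 in line 23095. The lines share no library, but both comparisons draw each gene's spread from 1 model. The part of the chromosome in these values was not tested.

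The difference between the mutant effects of the lines was itself tested and was called in 2 genes (0.00958% of all), both lower in line 36433. For KDM1A it was -2.20 on the log2 scale (SE 0.22, adjusted p = 0.00407, by the same edgeR test). Line 36433 was chosen as the line in which kdm1a transcript falls, so this difference is a description. Line 23095 had 130, 170 and 130 CPM in its mutants and 124 and 142 CPM in its wildtypes. For actn2b it was -3.12 (SE 0.40, adjusted p = 0.0286), where line 23095 had 62.9, 78.0 and 52.9 CPM in its mutants and 67.5 and 55.3 CPM in its wildtypes. The difference for si:ch211-236p5.3 was larger, -3.96 (SE 0.62), but was not called (adjusted p = 0.15), nor was that for akap12a (1.57, adjusted p = 0.336). Without 23095 wildtype replicate 1 neither difference was called (adjusted p = 0.12 for KDM1A and 0.252 for actn2b), and that of actn2b was also lost in 6 of the other 10 fits that left out 1 library.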

How the data were processed

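The authors deposited a table of raw counts (whole numbers, not normalized, for each Ensembl identifier in each library, as its values show) and a table of their own comparison holding log2 fold changes and adjusted p-values (deposited blank for 2313 genes). The submitters' processing notes name cutadapt 1.16, STAR 2.7.2c, DESeq2 1.22.2 and GRCz11; the labels give a stranded total RNA kit with ribosomal RNA removal and reads of 150 bases. The counting tool and its strand setting are not given in the sources used here.

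Here, 20886 of 23617 identifiers passed edgeR's filterByExpr (minimum count 10, minimum total 15). Group means of the 4 groups were fitted over all 11 libraries (7 residual degrees of freedom) with TMM factors and tested with glmQLFTest, two-sided (edgeR 4.0.16, R 4.3.3), with Benjamini-Hochberg adjustment over all genes, and called under 0.05. Standard errors (SE) come from the F statistic. The procedure was tested on simulated data, with changes given to genes not of low abundance. Of 50 genes with a simulated log2 change of 1 in size, 24 were called, and of 50 with a change of 2, 46 were. Changes of 3 and 4 were given to 50 genes each, of which 48 and 50 were called. In the same simulation 12 unchanged genes were called too. More genes were called there than in the data, which makes the adjustment less strict. These shares may therefore be too high for the data. A gene that was not called may therefore still differ.

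The 29 lists, the genes to name and the comparison were chosen with earlier results of these data known. The 732 list symbols were matched by symbol (500), human-style symbol (135) or RefSeq synonym (24), and 73 were unmatched; the human-style step was added after tables had been seen. Named are all called genes with a symbol, the genes next above the threshold, and up to 3 further members of a list by smallest p. RefSeq gene order was on GRCz12tu, a later assembly than the files' build, so no positions are given. Among the named genes RRM2, SOX1 and COQ8A, like RASGRP2 and SLC16A12, have symbols shared by 2 identifiers, and each value given is for 1 identifier. Identifiers sharing a symbol may share reads. The alternatives were other scalings, filters, DESeq2 1.42.0, a newer edgeR method, a replicate block, the 6 libraries alone and leaving out each library; no gene sequences were used here.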

Additional observations from a re-analysis of the deposited data

Results flagged for a closer look

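The mutant effect differed between the lines in 2 genes by a test of the difference itself (line 36433 effect minus line 23095 effect). It was -2.20 on the log2 scale for KDM1A and -3.12 for actn2b. The first is a description, since line 36433 was chosen as the line in which kdm1a transcript falls. Without 23095 wildtype replicate 1 neither difference was called (adjusted p = 0.12 for KDM1A and 0.252 for actn2b, edgeR's quasi-likelihood test). The call of actn2b was also lost in several other fits with a library left out and with the replicate block within line. The gene actn2b lies on the same chromosome as kdm1a but not among the 40 genes nearest to it.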

How the results depend on the processing

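The 35 calls of line 36433 came to 31 to 41 under other scalings, filters, the newer edgeR method, the 6 libraries alone and the replicate block, and to 124 with DESeq2's Wald test. Leaving out 1 library gave 12 to 64, the highest without wildtype replicate 1, and 6 to 15 called genes in the lists where all libraries gave 14. The 2 differences between the lines became 57 with DESeq2's Wald test, 1 with the replicate block within line, and 0 to 4 when 1 library was left out. With the block over all 11 libraries, 18 genes rose and 13 fell rather than 25 and 10, which lowered the share of rises from 71.4% to 58.1%; leaving out wildtype replicate 1 gave 59.4%. With that block the difference between the lines for actn2b had an adjusted p of 0.0671 (edgeR). The replicate numbers were not taken as pairs in the main fit. Deviations of same-numbered mutants and wildtypes correlated at 0.2, 0.0805 and 0.0182 across genes. Those of differently numbered ones correlated at -0.202 to 0.159, mostly below 0, and wildtype replicate 3 correlated best with mutant replicate 2 (0.159). These values do not decide whether the numbers are pairs, so the replicate block is given as an alternative. For kdm1a every alternative run kept the call in line 36433. Of 1921 values of named genes under an alternative, 1761 kept their side of the threshold, and 122 lost and 38 gained a call. Among values of called genes 0 reversed direction. Reversals of genes not called were not counted, and ins, at -2.32 with all libraries, reached 1.185 in a fit with a library left out. The cause was not tested. No scaling moved the median of all genes by more than 0.0537. The medians of the neural crest, notochord, hox, muscle, tailbud, p53, neutrophil, neural progenitor, immediate early and head and heart lists changed sign under at least 1 setting. Genes under a few CPM rest on few counts.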

Other observations

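Leaving out wildtype replicate 1 added 32 genes with a symbol to those called in line 36433, and the ones named here were chosen after their values were seen. Among those that fell in this fit were AGR2 (log2 fold change -2.05), the fucosidase gene FUCA2 (-1.18), the keratin gene krt91 (-1.14), the macrophage-type gene mfap4.11 (-2.97) and tspo (-1.08). With all 6 libraries their adjusted p-values were 0.0792, 0.193, 0.42, 0.136 and 0.252. Among those that rose were dmd, which encodes dystrophin (0.91), obsl1a (0.71) and FHOD3 (1.12), which had adjusted p-values of 0.763, 0.777 and 0.704 with all 6 libraries. None of the 3 is in the skeletal muscle list, of which 0 rose and 1 fell in this fit, with a median of 0.03.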
